A study of Mus musculus with 4 samples.

Results

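EN3 is 1 of the 13 subtypes into which the authors divided the excitatory neurons of the developing mouse superior colliculus, and its members are all nuclei that carry the label EN3 in the deposited annotation. It holds 340 of 4093 excitatory nuclei, of 7552 neuronal nuclei and of 9724 nuclei in all. Nuclear RNA was sequenced from C57BL/6J mice, with no other genotype or treatment named, at embryonic day 19 (E19) and postnatal days 4, 8 and 21 (P4, P8 and P21). Each stage had 1 library, made from tissue pooled from several animals and captured by the 10x Genomics 3′ v3 droplet method with a target of 2000 nuclei per sample. EN3 contributed 100 nuclei to the E19 library, 71 to P4, 79 to P8 and 90 to P21. Values without a stage are given in this order of stage throughout. Median depth in EN3 was 8360.5, 11916, 17214 and 21777 unique molecular identifiers (UMIs, 1 per captured RNA molecule) per nucleus, and the summed EN3 profiles held 888316, 903830, 1370568 and 2046307 UMIs. None of the 340 barcodes occurred in a second library, against 9 barcodes shared by 18 nuclei in the whole series. With 1 library a stage, a difference between stages is a difference between 2 pools with no replicate check, and every interval below is a 95% interval for counting error only.

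The superior colliculus is the layered roof of the midbrain. Its superficial layers receive retinal and cortical visual input, and its deeper layers combine that input with sound and touch to drive orienting and escape movements. Its excitatory neurons load glutamate into vesicles with the transporter VGLUT2, made from Slc17a6, and they are told apart largely by combinations of transcription factors and adhesion molecules. Around and after birth their inputs are refined into ordered maps of the world around the animal.

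EN3 nuclei carried the excitatory marker and little of the inhibitory ones. Slc17a6 stood at 281 CPM at E19 and 196, 176 and 208 at P4, P8 and P21 (CPM, counts per 1000000 UMIs of the summed profile), against a mean of 293, 248, 186 and 175 over the other excitatory subtypes. After each nucleus was thinned to 3000 UMIs, which left out no EN3 nucleus, 51.0%, 46.5%, 43.0% and 47.8% of EN3 nuclei kept a Slc17a6 UMI. The same share was 13.6%, 10.7%, 5.34% and 2.72% of inhibitory neurons and 15.1%, 20.9%, 9.09% and 7.72% of astrocytes, which should lack the gene, so EN3 stood well above the level of free RNA in each library. Without thinning, 89.0%, 88.7%, 93.7% and 94.4% of EN3 nuclei had a Slc17a6 UMI. Slc17a7, which encodes VGLUT1, gave 1 UMI at P4 and 0 at the other stages, which allows up to 3.38 CPM at E19, 2.19 at P8 and 1.47 at P21 (3 counts). A UMI of Gad1, Gad2 or Slc32a1, the genes of GABA synthesis and loading, was left in 6.00%, 7.04%, 7.59% and 6.67% of thinned EN3 nuclei, below the 23.2%, 24.6%, 25.5% and 17.6% of astrocytes and the 83.4% to 91.0% of inhibitory neurons.

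Markers of other cell types were low in EN3 and close to their level in the rest of the class. The 8 astrocyte markers summed to 156, 132, 138 and 73.8 CPM in order of stage in EN3, against 179, 165, 149 and 92.4 in the other subtypes. The 12 oligodendrocyte lineage markers summed to 90.1, 81.9, 81.0 and 212 CPM, against 85.5, 93.3, 68.1 and 253, with Sox10 at 0 UMIs at E19, P4 and P21. The 7 microglia markers summed to between 27.0 and 46.9 CPM, the 6 endothelial markers to between 10.3 and 16.8, the 6 markers of dividing cells to between 2.93 and 11.3, and the 12 genes of other transmitters to between 5.38 and 29.9. The 9 leptomeningeal and epithelial markers reached 99.6 CPM at P4, where the other subtypes stood at 119, and lay between 7.33 and 24.8 in the other libraries. Neighbouring regions were checked in the same way. The 12 hindbrain and cerebellum genes summed to 81.1, 105, 59.1 and 53.3 CPM in EN3 against 310, 225, 203 and 139 in the other subtypes, with Atoh1, Hoxa2 and Hoxb2 at 0 in every library. The 10 cortex and hippocampus genes summed to 358, 259, 284 and 207 CPM against 669, 471, 471 and 376, with Emx1 and Fezf2 at 0 throughout. The 12 thalamus and habenula genes summed to 2534, 2153, 1786 and 1075 CPM against 3079, 2546, 1982 and 1296, with Gbx2 at 0 throughout. The part of RNA from these other cells in the results below was not tested.

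EN3 made up its largest share of the excitatory nuclei in the P21 library and its smallest in the P4 library. Of the E19 excitatory nuclei it made up 7.47% (6.12 to 9.02, exact Clopper-Pearson), of those of P4 5.89% (4.63 to 7.37), of P8 9.11% (7.28 to 11.2) and of P21 13.2% (10.7 to 16.0). The P21 share lay above the intervals of E19 and P4, while the intervals of P8 and P21 overlapped. Against all neurons the shares were 4.48%, 3.65%, 4.04% and 6.33%, and against all nuclei 3.87%, 2.98%, 3.15% and 4.00%. A share depends on how many other nuclei each dissection and capture delivered, so a change in EN3 cells cannot be told apart from one in the cells around them.

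The other labels deposited with the nuclei placed EN3 beside EN1 and divided it in 2. Of the 340 nuclei, 317 (93.2%) lay in 1 cluster of the authors, number 0, whose 1572 nuclei also included 1080 of EN1 and 78 of EN2. In the first set of reference labels 207 EN3 nuclei were called ESC1, 125 ESC2 and 8 ISC5. In the second set, which bears numbers, 237 EN3 nuclei carried label 5 and 76 label 0. Label 5 lay mainly in EN3, which held 87.5% of its 271 nuclei, whereas label 0 was mainly an EN1 label, with 748 of its 997 nuclei in EN1 and 7.62% in EN3. Label 5 was on 49.0% (38.9 to 59.2) of EN3 nuclei in the E19 library, 70.4% (58.4 to 80.7) in P4, 77.2% (66.4 to 85.9) in P8 and 85.6% (76.6 to 92.1) in P21. Label 0 went the other way, from 45 of 100 nuclei (35.0% to 55.3%) at E19 through 18.3% (10.1 to 29.3) and 15.2% (8.10 to 25) to 6.67% (2.49 to 13.9) at P21. The E19 intervals of both labels did not overlap those of P8 and P21, and the main stage comparisons are therefore also given within label 5.

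**Figure D1:**
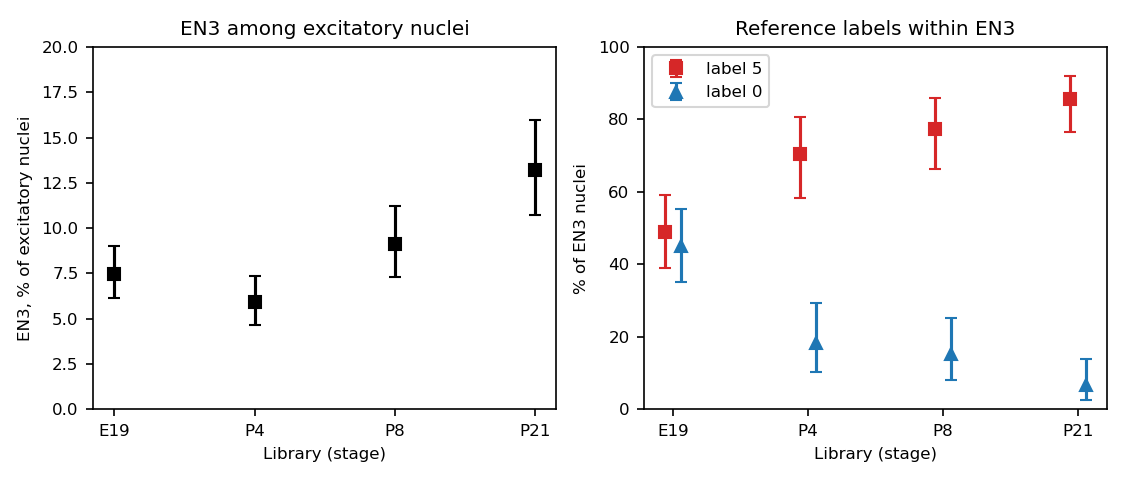
Share of EN3 among excitatory nuclei (left, in percent) and shares of reference labels 5 and 0 among EN3 nuclei (right, in percent) in each library. Squares and triangles are shares and bars are 95% Clopper-Pearson intervals; EN3 is largest at P21 (13.2%), and label 5 goes from 49.0% of EN3 at E19 to 85.6% at P21.

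EN3 was set against the mean CPM of the other excitatory subtypes with at least 20 nuclei in a library, each weighted alike (12 subtypes at E19 and P4, 10 at P8 and P21). Values are log2 ratios with 5 CPM added, which understates the ratio of low genes, and since the authors' subtypes come from clustering of these genes, they describe EN3 and are no test. Of 6111 genes with at least 20 CPM in EN3 or the mean in every library, 12 (0.196%) were at least 2-fold higher in EN3 in all 4 libraries. These were the nuclear receptors Esrrb and Nr2f2, the factors Tfap2b, Pbx3 and Tcf7l2, the adhesion and membrane genes Il1rapl2, Cntn4, Cntn6, Parm1 and Rxfp2, the vesicle gene Stxbp6, and the noncoding RNA B230323A14Rik. The count was 21 without the E19 library, a change that can only keep or add genes. It was 22 when only EN3 nuclei of label 5 were used, 11 of them among the 12. Against the other excitatory nuclei pooled it was 9, all among the 12. Of the 12 leading genes named by a rule that asks for 50 CPM in EN3 in every library, 3 were highest of all subtypes in all 4 libraries and all 12 ranked in the top 3; that rule takes Esrrg in place of Rxfp2.

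With 5 CPM added, B230323A14Rik, a long noncoding RNA, had the largest ratio of the 12 in each library; by plain CPM the ratios of Rxfp2, at lower levels, were larger. In EN3 it stood at 543 CPM at E19 and 472, 558 and 419.8 at P4, P8 and P21, with counting intervals of 495 to 593, 429 to 519, 519 to 599 and 392 to 449, against 41.2, 27.1, 36.3 and 24.1 in the mean of the other subtypes. EN3 was the highest subtype in each library, with log2 ratios of 3.57, 3.89, 3.77 and 3.87, and the next, EN4, reached 403, 256, 268 and 166 CPM. At 3000 UMIs, 65.0%, 67.6%, 70.9% and 66.7% of EN3 nuclei held a UMI of it, against at most 3.82% of EN1 nuclei and 1.38% of inhibitory neurons in any library. Astrocytes also carried the RNA, at 176, 122, 181 and 476 CPM, so it is not confined to neurons. The gene (ENSMUSG00000097623) spans chr9:69758740-69830845 on the plus strand in GENCODE M21 on GRCm38, where it is annotated as antisense to Foxb1, a single forkhead factor gene at chr9:69757710-69760940 on the minus strand. Foxb1 was also highest in EN3 in every library, at 54 CPM at E19 and 29.9, 39.4 and 8.8 at P4, P8 and P21, against 4.17, 2.45, 2.57 and 0.672 in the mean and 26.6, 11.0, 11.9 and 2.32 CPM in EN4, the next subtype. The strand setting of the counting is not given in the sources used here, and the UMIs of these overlapping genes cannot be told apart with certainty.

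5 transcription factor genes were among the 12. Esrrb encodes estrogen-related receptor beta, an orphan nuclear receptor, and stood at 85.6 CPM at E19 and 154, 78.8 and 66.9 at P4, P8 and P21 in EN3 against 5.13, 9.28, 2.02 and 2.88 in the mean. EN3 was highest in each library, with EN11 next at E19 (34.9) and P4 (60.4) and EN1 next at P8 (6.54) and P21 (10.6). Its UMIs came from a minority of EN3 nuclei: 18.0%, 40.8%, 29.1% and 42.2% had one without thinning. Nr2f2, which encodes the orphan receptor COUP-TFII, stood at 127 CPM at E19 and 115, 73 and 63.5 at P4, P8 and P21 against 46.8, 34.8, 7.68 and 5.28. EN7 at E19 (132) and EN11 at P4 (123) were level with EN3 within counting error, whereas at P8 and P21 no other excitatory subtype exceeded 17.9. Astrocytes carried Nr2f2 at 134, 153, 51.6 and 27.1 CPM and inhibitory neurons at 64.9, 75.8, 20.8 and 20.5. Tfap2b, an AP-2 family factor, stood at 512 CPM at E19 and 369.5, 390.3 and 172 at P4, P8 and P21 against 206, 126, 140.0 and 42, and EN13 carried more of it in every library and EN4 at E19, P4 and P8. Pbx3, a homeodomain partner of Hox and Meis factors, stood at 1416 CPM at E19 and 753, 821 and 540.5 at P4, P8 and P21 against 369, 280.1, 277 and 236, close to EN4 at E19 (1281) and EN12 at P4 (767). Tcf7l2, a nuclear effector of Wnt signalling, stood at 1163 CPM at E19 and 991, 761 and 516 at P4, P8 and P21 against 538, 457, 175 and 125. EN7 and EN2 were above EN3 at E19 and P4, EN2 was level with it at P8 (764), and EN3 was the highest excitatory subtype at P21. Astrocytes carried Tcf7l2 at 951, 953, 816 and 729 CPM, more than EN3 at P8 and P21. Esrrg, the gamma relative of Esrrb, stood at 349 CPM at E19 and 500.1, 433 and 611 at P4, P8 and P21 against 176, 202, 184 and 313, with log2 ratios of 0.97, 1.29, 1.21 and 0.95, just under 2-fold at E19 and P21.

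The 250 bases before the start of the EN3 gene Esrrb, and the same window of Tcf7l2, are shown as windows of 2 leading factor genes that overlap no annotated exon. Both are RefSeq sequences on the plus strand of GRCm38.p6, read 5′ to 3′, from chr12:86360867-86361116 and chr19:55741560-55741809. For Nr2f2 a short stretch around its 1 motif match is shown, and for Stxbp6 a stretch with the first 2 of its 3 matches, from the minus strand at chr7:70366844-70366870 (first base 124 before the start) and chr12:45074564-45074592 (first base 109 before it). The start meant is that of the RefSeq window, which differs from the GENCODE M21 start for Stxbp6. In GENCODE M21 that gene spans chr12:44852484-45074709, so its stretch lies inside the annotated gene. Capitals mark matches to CTTTGAT, a TCF/LEF motif, in Nr2f2 and to GCCNNNGGC, an AP-2 motif, in Stxbp6.
Esrrb: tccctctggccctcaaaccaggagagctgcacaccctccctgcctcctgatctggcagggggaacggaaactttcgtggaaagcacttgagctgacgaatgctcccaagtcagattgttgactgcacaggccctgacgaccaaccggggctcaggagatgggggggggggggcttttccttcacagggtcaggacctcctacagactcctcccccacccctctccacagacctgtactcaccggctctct
Tcf7l2: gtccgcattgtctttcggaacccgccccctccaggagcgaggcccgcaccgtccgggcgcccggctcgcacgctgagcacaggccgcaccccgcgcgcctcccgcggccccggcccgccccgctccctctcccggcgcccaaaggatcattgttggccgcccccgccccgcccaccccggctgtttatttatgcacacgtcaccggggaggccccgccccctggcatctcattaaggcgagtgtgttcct
Nr2f2: caagttctatCTTTGATccagggtgag
Stxbp6: GCCTGTGGCggggccccggaGCCCTGGGC

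The Esrrb window is 60.8% G and C and the Tcf7l2 window 72.8%. The motifs were searched on both strands in 16 windows of the 10 leading genes that the RefSeq table holds; B230323A14Rik and Pbx3 are not among them. GCCNNNGGC occurred in 3 windows, of Esrrg, Parm1 and Stxbp6, and is in 13.7% of all 32851 windows of this length. CTTTGAT occurred in 2, of Cntn4 and Nr2f2, against 3.21% of all windows. Of the windows with a match, those of Nr2f2, Parm1 and Stxbp6 each overlap 1 annotated exon, and that of Cntn4 overlaps 2. TCAAGGTCA, the motif of estrogen-related receptors (0.387% of windows), AAGGTCA, the core it contains (4.08%), and TGATTGAT, a PBX motif (0.670%), occurred in none of the 16. A match describes letters in a window and not a bound site.

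The leading genes of the cell surface were led by Il1rapl2, which encodes an X-linked membrane protein of the interleukin-1 receptor family whose relatives organise synapses. It stood at 1015 CPM at E19 and 1325, 1679.6 and 1444 at P4, P8 and P21 in EN3 against 147, 235, 229.7 and 139.9 in the mean, and EN3 exceeded the next subtype, EN1, in every library (351, 518, 541 and 396 CPM). Inhibitory neurons carried more of it than EN1 did, at 577, 537, 871 and 735 CPM. Cntn4 and Cntn6 encode contactins, immunoglobulin adhesion molecules anchored to the membrane of axons. Cntn4 stood at 2186 CPM at E19 and 2627, 2468 and 2755 at P4, P8 and P21 against 869, 825, 749 and 1055, below EN2 (2787) and level with EN7 (2211) at E19 and above every other subtype afterwards. Cntn6 stood at 419 CPM at E19 and 572, 675 and 737 at P4, P8 and P21 against 194, 269.7, 242 and 280.3, below EN7 at E19 and P4 and highest in EN3 at P8 and P21. Rxfp2, which encodes a receptor for the relaxin-family peptide INSL3, was close to absent outside EN3: it stood at 48.4 CPM at E19 and 115, 54 and 39.6 at P4, P8 and P21 in EN3, against 0.586, 3.2, 2.75 and 1.77 in the mean and at most 9.06 in any other subtype. Stxbp6 encodes amisyn, a protein that binds SNARE complexes of vesicle fusion, and stood at 204 CPM at E19 and 270.0, 274 and 353 at P4, P8 and P21 against 71.3, 105, 105 and 155. EN4 equalled or exceeded it at P4 (269.9) and P8 (384). Parm1, a mucin-like membrane protein gene, stood at 86.7 CPM at E19 and 79.7, 119 and 132 at P4, P8 and P21 against 24.6, 34.7, 40.3 and 48.5, below EN9 at P4 (114) and level with it at P8 (115) and P21 (138). EN3 was the highest of all subtypes in all 4 libraries for 6 of the 6111 genes (0.0982%): Il1rapl2, Rxfp2, B230323A14Rik, Esrrb, Galnt7 and Capn10, of which Galnt7 and Capn10 lay within counting error of the next subtype in at least 3 libraries.

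**Figure D2:**
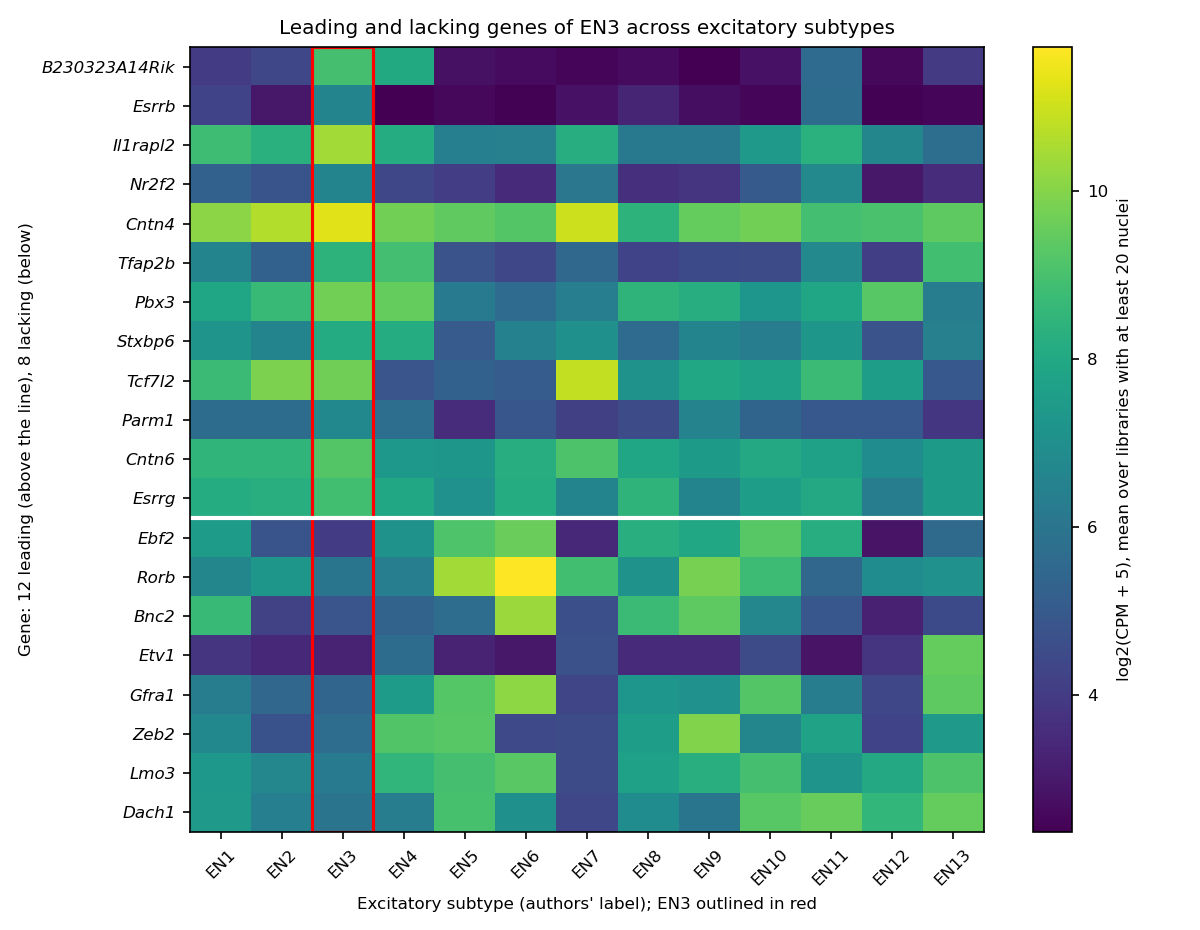
Mean log2(CPM + 5) over libraries of the 12 leading genes (above the white line) and 8 lacking genes (below it) of EN3 in each of the 13 excitatory subtypes, with EN3 outlined in red. EN4 shares B230323A14Rik, Tfap2b, Pbx3 and Stxbp6 with EN3, EN7 shares Tcf7l2 and Cntn4, and no other subtype shows the whole set.

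The leading genes were also counted in single nuclei. After thinning, an EN3 nucleus had a UMI of a median of 7 of the 12 leading genes, and 68.2% of EN3 nuclei had 6 or more. The median was 4 in EN1, 4 in EN2 and 3 over all other excitatory nuclei, and 11.2%, 13.7% and 8.66% of them had 6 or more. Within EN3 the share with 6 or more was 52.0%, 80.3%, 70.9% and 74.4% by library, and the median was 7 in label 5 and 5 in label 0. These genes were chosen on the same nuclei, so the shares show how the set is spread over nuclei and are no check of it.

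**Figure D3:**
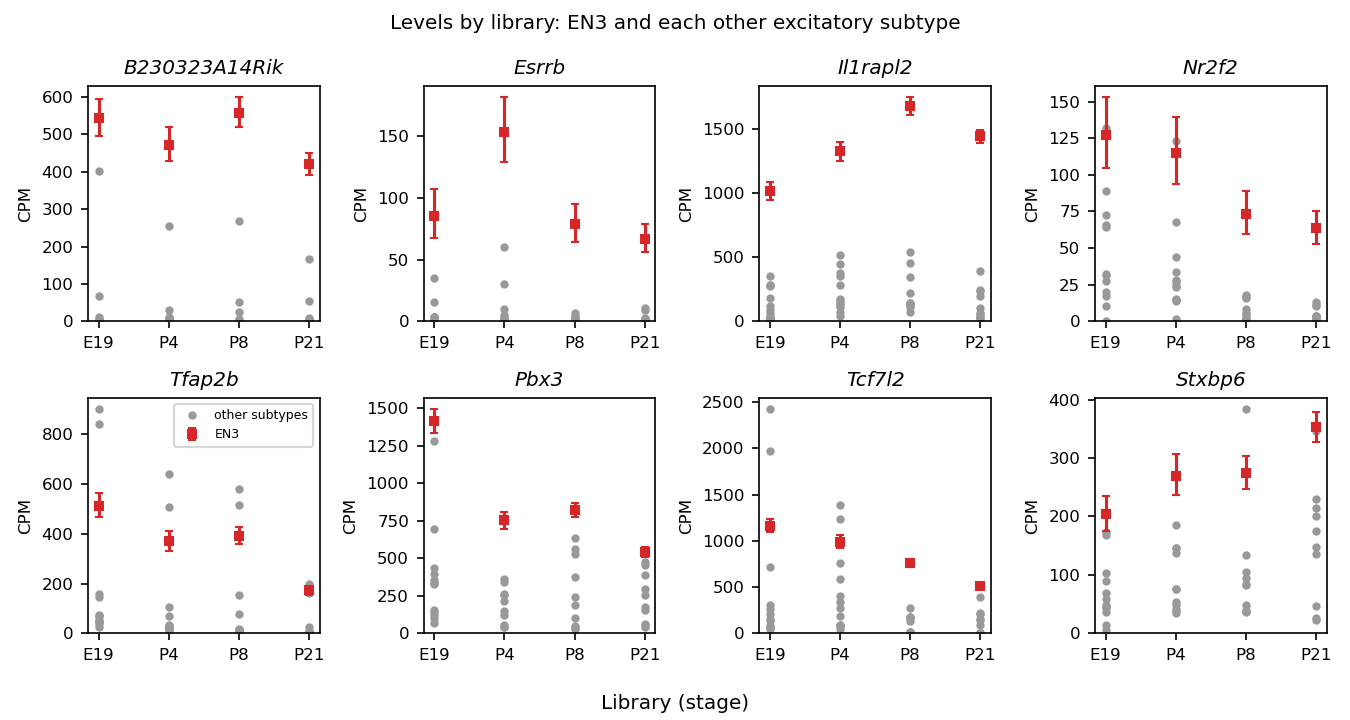
Levels in CPM of 8 leading genes by library, with EN3 as red squares (bars, 95% Poisson intervals) and every other excitatory subtype with at least 20 nuclei as a grey point. EN3 stands above all others in every library for B230323A14Rik, Esrrb and Il1rapl2. For Tfap2b in each library and for Tcf7l2 at E19, P4 and P8, 1 or 2 other subtypes reach or exceed it. The same is true of 1 other subtype for Nr2f2 at E19 and P4, Pbx3 at P4 and Stxbp6 at P4 and P8.

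Against the mean of the other subtypes, more genes were lacking in EN3 than enriched: 38 of the 6111 (0.622%) were at least 2-fold lower in all 4 libraries. When the other excitatory nuclei were pooled instead of weighted by subtype the count was 20, of which 19 were among the 38. 11 of the 38 were on the list of neuron identity factors. Ebf2, a helix-loop-helix factor of early neuron differentiation, stood at 49.5 CPM at E19 and 15.5, 4.38 and 1.95 at P4, P8 and P21 in EN3 against 442, 273, 312 and 152 in the mean, and 63.6% of its E19 UMIs came from 1 nucleus. Rorb, an orphan nuclear receptor of sensory circuits, stood at 108 CPM at E19 and 46.5, 40.1 and 57.2 at P4, P8 and P21 against 952, 628, 639 and 493, a mean drawn up by EN6 (6848 CPM at E19). Etv1, an ETS factor that EN13 expressed strongly, did not exceed 8.85 CPM in EN3 in any library, against 97.4, 82.5, 89.9 and 51.6 in the mean. The zinc finger genes Bnc2 (27, 14.4, 24.8 and 29.8 CPM against 395, 250.0, 295 and 201) and Zeb2 (78.8, 33.2, 58.4 and 33.7 against 352, 269, 334 and 166) were low throughout. The same held for the cofactor genes Lmo3 (116, 60.9, 89 and 33.7 against 464, 363, 399.7 and 182) and Dach1 (54, 62, 38.7 and 80.1 against 319, 291, 269.6 and 321). Gfra1, a receptor for the growth factor GDNF, stood at 40.5, 56.4, 24.1 and 35.7 CPM against 387, 317, 369 and 264. As for Rorb, the mean of several of these genes was drawn up by a single subtype. At E19 EN6 held 1516 CPM of Ebf2, 2022 of Bnc2 and 1506 of Gfra1, EN13 1006 of Etv1 and EN9 1746 of Zeb2.

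EN3 was seldom the single lowest subtype for these genes. None of the 8 lacking genes named here was lowest of all in all 4 libraries, and 1 ranked among the lowest 3 in all of them, so most are lacking in EN3 together with other subtypes. Over the 6111 genes EN3 was lowest of all in every library for 3 (0.0491%). These were Runx1t1, a corepressor gene (313, 227, 202 and 181 CPM against 1127, 741, 756 and 506), Fam19a1, which encodes a secreted neuronal protein (606, 517, 659 and 552 against 2168, 2061, 2506 and 2051), and the ankyrin gene Ank1 (108, 111, 116 and 225 against 202, 238, 304 and 371). Others of the 38 were Kitl, the ligand of the receptor Kit (6.75, 25.4, 10.9 and 33.2 against 148, 130.0, 86.7 and 85.1), the calcium channel subunit gene Cacna2d1 (489.7, 496, 387 and 409.5 against 1692, 1279, 1489 and 1285) and the transmembrane collagen gene Col25a1 (64.2, 195, 203 and 161 against 716, 653, 892 and 906).

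By Pearson correlation across genes of log2(CPM + 5), averaged over libraries, EN1 (0.968) and EN2 (0.953) were the subtypes most like EN3, followed by EN4 (0.943) and ending with EN6 (0.876). Genes are not independent replicates, and the points share a library, so these values only order the subtypes. Against EN1, 16 of 6138 genes (0.261%) were at least 2-fold higher in EN3 in all 4 libraries and 10 (0.163%) at least 2-fold lower. B230323A14Rik was almost absent from EN1 (6.73, 8.22, 25.3 and 8.21 CPM), and Esrrb was lower there (16, 30.5, 6.54 and 10.6), as was Pbx3 (393, 213, 186 and 178). Klhl5, a Kelch-family gene, stood at 172, 223, 218 and 132 CPM in EN3 and 54.8, 73.4, 80.2 and 48.4 in EN1. In the other direction EN1 carried Bnc2 at 469, 323, 529 and 313 CPM and Ebf2 at 431, 222, 133 and 85.9, both near absent from EN3. Erbb4, the neuregulin receptor, stood at 404, 371, 319 and 392 CPM in EN3 and 1628, 1610.5, 1575 and 1466 in EN1. Gpc5, a heparan sulfate proteoglycan gene, stood at 328, 304, 659.6 and 426 in EN3 and 1058, 1389, 2009 and 1812 in EN1.

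Against EN2, 27 of 6146 genes (0.439%) were higher in EN3 in all 4 libraries and 10 (0.163%) lower. EN2 had little B230323A14Rik, with its highest level at P8 (12.7, 9.65, 50.8 and 6.75 CPM), and little Esrrb (3.3, 1.61, 4.01 and 2.7). Ntng2, which encodes the axonal synapse organiser netrin-G2, stood at 709, 595, 531 and 263 CPM in EN3 and 24, 28.9, 40.1 and 36.5 in EN2. The noncoding RNA D130009I18Rik stood at 79.9, 66.4, 93.4 and 84.5 in EN3 and 6.12, 4.82, 1.34 and 2.7 in EN2. EN2 in turn carried the homeodomain factor Meis2 at 2040.2, 1247, 1787 and 777 CPM, against 315, 193, 177 and 151 in EN3, and more of the factor Bcl11b (358, 258, 270.2 and 131 against 106, 42, 50.3 and 31.3) and of the cadherin gene Cdh9 (187, 229, 142 and 153 against 54, 77.4, 43 and 41). 7 genes were higher in EN3 than in both relatives in every library, namely Tfap2b, Ntng2, Il1rapl2, Klhl5, Rxfp2, B230323A14Rik and Esrrb, and none was lower than in both.

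EN3 nuclei of labels 5 and 0 shared a core and differed in other genes. Levels are compared at E19, P4 and P8, where each label had at least 12 EN3 nuclei (49, 50 and 61 of label 5 and 45, 13 and 12 of label 0). The core was B230323A14Rik, at 709, 550.5 and 612 CPM in label 5 and 410.3, 336 and 381 in label 0, against 6.73, 8.22 and 25.3 in EN1. Pbx3 (1722, 738 and 866 and 1171, 590.5 and 579.7, against 393, 213 and 186 in EN1) and Foxb1 (58.7, 33.8 and 39.7 and 49.2, 34.3 and 52.2, against 2.97, 2.19 and 0.872) were also carried by both labels. Slc17a6 was alike in both, at 291, 183 and 177 and 259.8, 219.7 and 183 CPM, with overlapping counting intervals in each library. Median depth was 8947, 12070 and 17427 UMIs in label 5 and 8086, 10574 and 16384.5 in label 0. The labels were assigned from these nuclei's own RNA, so what follows describes them and tests nothing.

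Esrrb and Rxfp2 belonged to label 5. Rxfp2 stood at 93.5, 159.9 and 68.4 CPM in label 5 and had 0 UMIs in label 0 in all 3 libraries, so it was at least 11.4-fold, 7.76-fold and 4.37-fold higher in label 5 (against 3 counts per library). Esrrb stood at 165, 209 and 99.8 CPM in label 5, and in label 0 it had 0 UMIs at E19 and P8 and 3 UMIs (20.6 CPM) at P4. Nr2f2 was mostly in label 5 as well (209, 139.9 and 84.1 against 24.6, 34.3 and 0). Further genes of label 5, named for the largest difference over the 3 libraries, were Etl4 (285, 846 and 854 against 10.9, 48.1 and 47), the calmodulin-dependent phosphodiesterase Pde1a (117, 178 and 174 against 8.21, 6.87 and 15.7), the glucosyltransferase gene B3glct (169.6, 174 and 163 against 24.6, 34.3 and 15.7) and the serotonin receptor Htr2a (54.4, 60.0 and 41.6 against 2.74, 0 and 0). In label 0 Pde1a had 3, 1 and 3 UMIs and Htr2a 1, 0 and 0, where 3 counts equal 8.21, 20.6 and 15.7 CPM. EN1 lay between the 2 labels for Etl4 (133, 297 and 326 CPM) and Pde1a (81.9, 134 and 133). So it did for B3glct (42.9, 68.1 and 46.7) and Htr2a (32.1, 18.6 and 27.5). Prox1, a homeodomain factor, was at 73.9, 64.6 and 88.7 CPM in label 5 and 16.4, 6.87 and 15.7 in label 0 (6, 1 and 3 UMIs). Over all EN3 it stood at 45 CPM at E19 and 55.3, 72.2 and 23.5 at P4, P8 and P21, and at P8 and P21 no other excitatory subtype exceeded 6.74.

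Label 0 nuclei carried several genes that EN1 carries too, as label 5 nuclei did with Pde1a. The forkhead factor Foxp2 stood at 837, 1085 and 867 CPM in label 0, 113, 168 and 117 in label 5 and 413, 362 and 315 in EN1. Gpc5 stood at 673, 1291 and 2115 in label 0, 37, 93.8 and 377 in label 5 and 1058, 1389 and 2009 in EN1, and the neuronal factor Npas3 at 1567, 2067 and 1081, 169.6, 251 and 226 and 1197, 1159 and 1189. Sox6 (632, 487 and 773 in label 0, 113, 23.1 and 202 in label 5), Dach1 (79.3, 213 and 125, 13, 10.8 and 25) and the noncoding RNA 9630028H03Rik (76.6, 27.5 and 198, 2.17, 4.61 and 11.1) were also higher in label 0 than in label 5. At P4 9630028H03Rik rested on 4 UMIs in label 0 and 3 in label 5, with overlapping counting intervals. EN1 stood at 278, 287 and 660.3 CPM for Sox6 and 187, 148 and 155 for Dach1 but at 8.31, 8.77 and 9.16 for 9630028H03Rik, near label 5. Il1rapl2 was high in both labels and highest in label 0, at 1439, 3612 and 3207 against 796, 969 and 1470.5 CPM in label 5. Across genes at E19, where label 0 had most nuclei, the correlation was 0.923 between the labels, 0.946 between label 5 and EN1, and 0.941 between label 0 and EN1. With EN2 it was 0.937 for label 5 and 0.928 for label 0. The label profiles rest on far fewer UMIs (459871 and 365626) than those of EN1 and EN2, which lowers a correlation through counting error, so no order of likeness is read from these values.

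The 2 gene sets were also counted in single nuclei. At 3000 UMIs per nucleus, the 6 genes of each label named above were summed. Of 76 label 0 nuclei, 71 had more UMIs of the label 0 genes, 1 of the label 5 genes and 4 equal numbers, with medians of 12.5 and 0 UMIs. Of 237 label 5 nuclei, 144 had more UMIs of the label 5 genes, 61 of the label 0 genes and 32 equal numbers, with medians of 3 and 1. UMIs of both sets were found in 122 of the label 5 nuclei and 16 of the label 0 nuclei. The label 0 set is the more abundant of the 2 and the genes were chosen on the same nuclei, so the counts do not compare the uniformity of the labels.

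**Figure D4:**
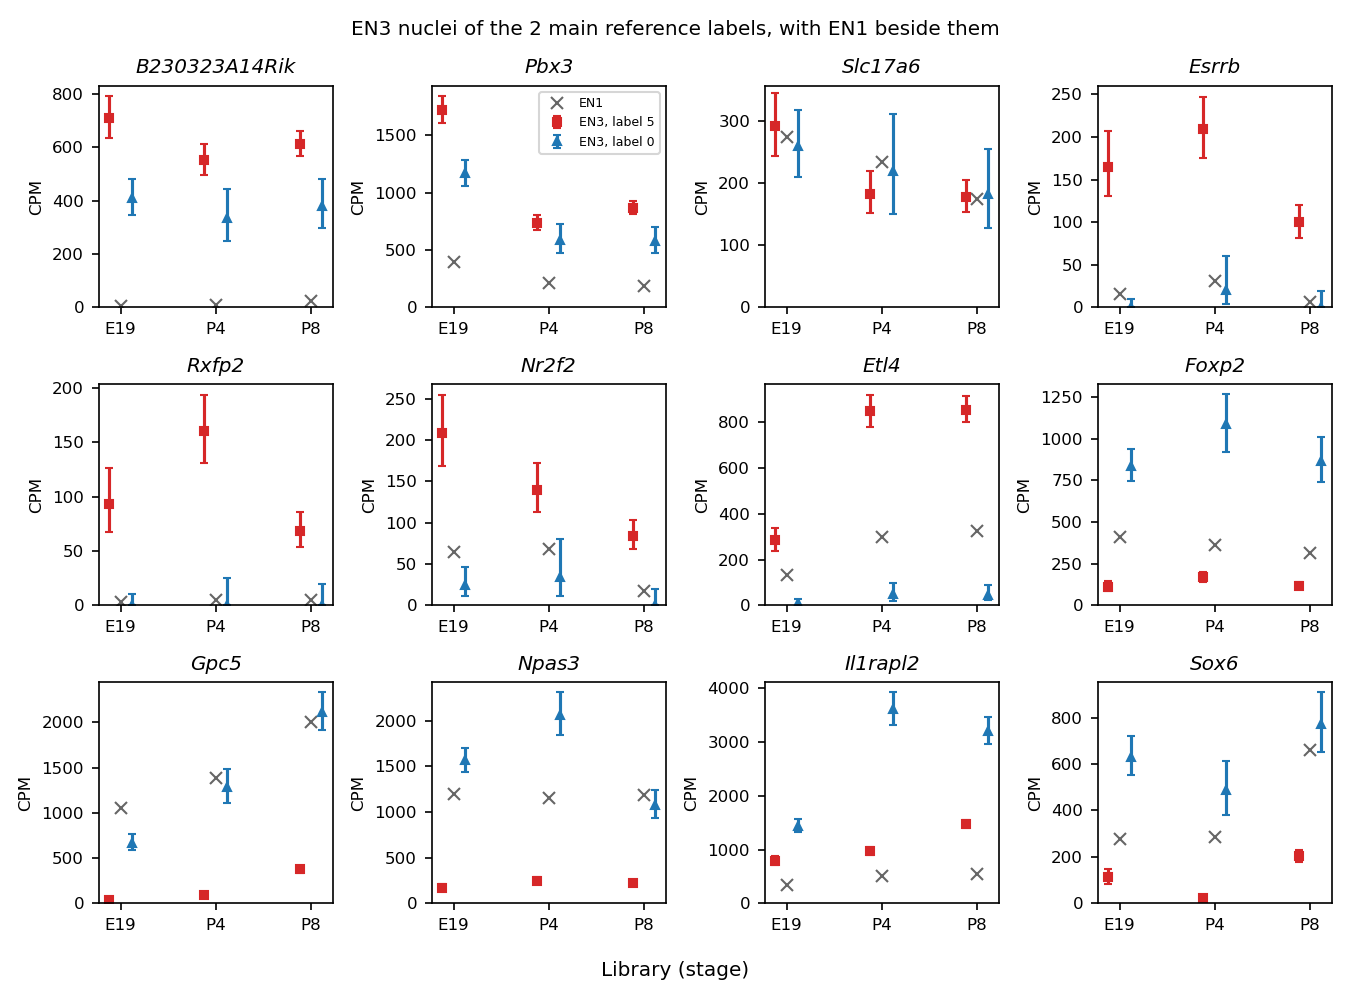
Levels in CPM of 12 genes in EN3 nuclei of label 5 (red squares) and label 0 (blue triangles), with 95% Poisson bars, and in EN1 (grey crosses) at E19, P4 and P8. B230323A14Rik and Pbx3 stand above EN1 in both labels, Rxfp2 and Esrrb are high in label 5 alone among the 3, and Foxp2, Gpc5, Npas3 and Sox6 are low in label 5.

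Most of the listed genes that set EN3 apart from the other subtypes were transcription factors. Of the 43 identity factors tested (of 88 listed), 5 were at least 2-fold higher in EN3 in all 4 libraries and 11 lower, with a median log2 ratio of -0.31, beside -0.01 over all genes. The lower ones included Meis2, Lef1 (309.6, 206, 298 and 105 CPM against 872, 741, 810.4 and 424), Satb1 and Bcl11b. Of 57 axon guidance genes tested, Cntn4 and Cntn6 were higher, and the semaphorin Sema3e (9.01, 7.74, 11.7 and 2.93 against 31.5, 45.3, 42.2 and 37.8) and the Slit receptor Robo2 (709, 687, 576 and 495 against 1967, 1498, 1643 and 1358) lower. Of 60 synapse organisers Il1rapl2 was higher and Igsf21 lower (55.2, 37.6, 52.5 and 21 against 132, 136, 119 and 55.6). Of 14 modulator receptors the muscarinic receptor Chrm3 was lower (419.9, 426, 541 and 520.0 against 881, 914, 1166 and 1106), of 8 neuropeptides and secreted signals Kitl, and of 42 voltage-gated channel genes Cacna2d1. None of 20 cadherins and protocadherins, 20 glutamate receptors, 19 GABA and glycine receptors, 11 immature and 13 mature neuron genes, 7 calcium-binding genes and 9 matrix genes passed 2-fold in all libraries in either direction. Over all 6111 genes 0.196% were higher and 0.622% lower, so a count of 0 in a list of this size does not set it apart from the background. Over the lists with at least 10 tested genes the median log2 ratio lay between -0.32 (modulator receptors) and 0.17 (cadherins and protocadherins).

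The lists of populations and regions gave few genes. Of 13 collicular population markers tested 2 were lower (Rorb and Etv1), and Ntng2 was the highest on average (log2 1.01). Of 8 thalamus and habenula genes Tcf7l2 was higher and Lef1 and Rorb lower, of 2 hindbrain genes Etv1 was lower, and of 3 cortex genes Bcl11b. None of 7 pan-neuronal, 4 excitatory transmitter, 1 inhibitory transmitter, 1 astrocyte, 1 oligodendrocyte lineage, 1 microglia and 1 immediate early gene tested passed 2-fold in all libraries, and no gene of the lists for other transmitters, endothelial, leptomeningeal and epithelial, or dividing cells reached the level tested, here or between stages. The lists were chosen with earlier results of these data known and share members, so the counts describe them only.

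Between E19 and P21, EN3 lost transcripts of immature, growing neurons and gained transcripts of mature ones: all 18 immature neuron genes tested were at least 2-fold lower at P21, and 10 of 18 mature neuron genes at least 2-fold higher. Of 7770 genes with at least 20 CPM at the higher stage, 589 (7.58%) were at least 2-fold higher at P21 and 991 (12.8%) at least 2-fold lower. By median-of-ratios scaling in place of CPM, which moves the median of all genes by 0.11 on the log2 scale, the counts were 750 and 809, or 48.1% higher in place of 37.3%. With 20 CPM added in place of 5 they were 316 and 514, and with thinned nuclei 950 and 1427. Within label 5 alone they were 688 and 1008. Of the 589 higher genes 504 were also past 2-fold within label 5 and none changed sign. Of the 991 lower genes 834 were, and 3 changed sign: Lef1 (-1.52 over all EN3 nuclei and 0.08 in label 5), 9630028H03Rik and Snrpd1. The counts of 18 immature and 10 mature neuron genes were the same in label 5. The E19 pool differed in a further way: Xist, the RNA of the inactive X chromosome in females, gave 0 UMIs in EN3 at E19 and 410.5, 375 and 289 CPM later, so the sexes of the pooled animals cannot be told apart from the stage.

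The genes with the largest decrease were those of immature neurons and their cytoskeleton. The tubulin gene Tubb2b went through 751 CPM at E19 and 318, 128 and 4.4 at P4, P8 and P21, a log2 ratio of -6.33, and Tubb5 through 548, 272, 99.2 and 11.2 (-5.09). Nnat, an imprinted gene of developing neurons, went through 762, 401, 226 and 15.6 CPM (-5.22). The actin-binding peptide gene Tmsb10 (353, 177, 78.8 and 15.1 CPM, -4.15), the actin gene Actg1 (383, 171, 83.2 and 22.5, -3.82) and Fabp7 (203, 83, 52.5 and 2.44, -4.80), a fatty acid-binding protein gene of radial glia, completed the 6. Each decreased at every step, and each stayed past 2-fold within label 5 (Actg1, the least changed there, at -3.64). In the other subtypes the same 6 genes had log2 ratios between -3.81 (Actg1) and -6.32 (Tubb2b). The 18 immature neuron and growth cone genes tested had a median log2 ratio of -2.86 in EN3 and -2.99 in the other subtypes, beside -0.06 over all genes.

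The 6 largest increases were led by the noncoding RNA Gm13629 (9.01, 25.4, 39.4 and 265 CPM, log2 4.27). Rasgrf1, a calcium-dependent activator of Ras, went through 29.3 CPM at E19 and 68.6, 141 and 583 at P4, P8 and P21 (4.10), and Sgpp2, a sphingosine-1-phosphate phosphatase, through 4.5, 11.1, 29.9 and 156 (4.09). Specc1 (21.4, 27.7, 46.7 and 363 CPM, 3.80) increased mostly after P8. Npsr1, the receptor for neuropeptide S, stood at 5.63, 63.1, 35.8 and 140.3 CPM (3.77), against a change of 2.32 in the other subtypes, and Thrb, a thyroid hormone receptor, at 12.4, 71.9, 59.8 and 221 (3.70). In the other subtypes Gm13629 changed by 4.25, Sgpp2 by 3.72, Rasgrf1 by 3.59, Specc1 by 3.46 and Thrb by 3.33. Within label 5 these 6 genes had log2 ratios from 3.48 (Thrb) to 4.05 (Npsr1). Of 18 mature neuron genes 10 were higher at P21, among them the synaptotagmin Syt2 (5.63, 28.8, 33.6 and 133 CPM), the potassium channel Kcna1 (3.38, 4.43, 10.2 and 76.7) and the SNARE protein gene Snap25 (219.5, 302, 322 and 647), and 3 were lower, among them Mapt and Map1b, with a median of 1.15 in EN3 and 0.90 in the others.

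Receptors and channels moved in both directions. Of 20 glutamate receptors 3 were higher, among them Grin1 (1.38) and Grin2a (1.31), and 2 lower; of 20 GABA and glycine receptors Glra3 (2.10) and Glra1 (1.03) were higher and none lower. Of 19 modulator receptors 5 were higher, with Npsr1 and the serotonin receptor Htr2c (45, 134, 193 and 502 CPM) first, and the cannabinoid receptor Cnr1 (-1.55) was lower. Of 47 voltage-gated channel genes 9 were higher, among them Kcna1 (3.29), and 6 lower, among them Scn9a (-2.44) and Hcn4 (-2.24). Of 48 identity factors Zeb1 (1.05) was higher and 23 lower, with a median of -0.95 in EN3. Of 64 axon guidance genes Slit3 (116, 238, 274 and 302 CPM) was higher and 21 lower, with Efnb3 (-3.20) and Draxin (-3.12) lowest. Their median was -0.46 in EN3 and -0.52 in the other subtypes. Each gene named so far in this paragraph but Slit3 (-0.30) moved in the same direction in the other subtypes, Htr2c by 3.07 and Glra1 by 2.26. Of 62 synapse organisers 7 were higher and 7 lower. Beside the 7.58% and 12.8% of all genes, the shares of synapse organisers in either direction and of channel genes that were lower lie near the background. The same holds for glutamate receptors that were lower and for GABA and glycine receptors that were higher. Within label 5 the identity factors had 2 higher and 19 lower, with a median of -0.59, axon guidance genes 2 and 20, synapse organisers 9 and 8, channels 11 and 6 and modulator receptors 7 and 1.

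The other lists held fewer tested genes. Beside the 7.58% of all genes that were higher and the 12.8% that were lower, counts from lists this small only describe their members. Of 21 cadherins Cdh18 (2.02) and Cdh10 (1.10) were higher and 4 lower; of 12 neuropeptides and secreted signals 2 were higher and 4 lower; of 11 matrix genes 3 were higher and 3 lower. Of 9 calcium-binding genes Cabp1 (2.66) was higher and none lower, and of 15 collicular population markers 2 were higher and 4 lower. Of 10 thalamus and habenula genes 6 were lower and none higher, and 1 of 3 hindbrain genes and 1 of 3 cortex genes was lower. Of 7 pan-neuronal genes 2 were higher and 1 lower. The few tested members of the excitatory transmitter (1 higher of 4), inhibitory transmitter (0 of 1), astrocyte (1 lower of 2), oligodendrocyte lineage (1 higher of 2), microglia (0 of 1) and immediate early (1 higher of 2) lists complete them.

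The step from P8 to P21 held the most genes past 2-fold and the step from P4 to P8 the fewest. From E19 to P4, 173 of 7621 genes (2.27%) were higher and 203 (2.66%) lower, from P4 to P8 53 of 7320 (0.724%) and 106 (1.45%), and from P8 to P21 252 of 7310 (3.45%) and 347 (4.75%). Etl4, a gene of label 5, stood at 167 CPM at E19 and 639.5, 693 and 1399 at P4, P8 and P21, and the kainate receptor Grik1 at 180.1, 617, 279 and 234 CPM, both among the 3 largest increases of the first step with AC149090.1 (128, 505, 558 and 804). Sox6, a gene of label 0, went through 319 CPM at E19 and 101, 289.7 and 126 at P4, P8 and P21, which put it among the largest decreases of the first step and the largest increases of the second. D130079A08Rik (141, 33.2, 95.6 and 48.4) and the histone gene H3f3b (190.2, 58.6, 62.7 and 26.4) also decreased in the first step. Within label 5 the first-step ratio of D130079A08Rik was -0.76, no longer past 2-fold, and every other gene named here for a step stayed past 2-fold in its direction. In the second, Diaph2 (57.4, 43.1, 116 and 166) and Gm28928 (129, 158, 718 and 716) increased, and Cbln2, a synapse organiser (70.9, 102, 34.3 and 35.2), and Syt4 (235, 141, 54 and 93.3) decreased along with Tubb5. In the last step the largest changes included, beside those of Gm13629, Specc1, Nnat and Tubb2b, a decrease of the adhesion gene Mdga1 (281, 164, 206 and 32.3).

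The leading genes ranked among the 3 highest excitatory subtypes at each stage, with shifts of rank within them, while their levels changed. Tfap2b (-1.55), Pbx3 (-1.38) and Tcf7l2 (-1.16) were at least 2-fold lower at P21 than at E19, and all of them were lower in the other subtypes too (-2.29, -0.73 and -1.54). B230323A14Rik (-0.37), Cntn4 (0.33) and Il1rapl2 (0.51) changed by less than 2-fold. Within label 5 the ratios were -1.66 for Tfap2b, -1.65 for Pbx3, -1.52 for Tcf7l2, -0.68 for B230323A14Rik, -0.11 for Cntn4 and 0.76 for Il1rapl2, so that Cntn4 changed sign. For Esrrb the value differed within label 5: the log2 ratio was -0.33 over all EN3 nuclei and -1.18 within label 5, where the levels were 165, 209, 99.8 and 70.3 CPM. Nr2f2 went from -0.95 to -1.46 in the same way.

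A few genes changed with stage in EN3 otherwise than in the mean of the rest of its class. The change of EN3 from E19 to P21 was set against that of 10 other subtypes with at least 20 nuclei at both stages. Of 8114 genes, 129 (1.59%) lay at least 2-fold above the others and 88 (1.08%) at least 2-fold below. With 20 CPM added the counts were 44 and 19, and with EN3 nuclei of label 5 alone 239 and 142. This difference of changes has no replicate and was not tested.

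Adamts19, which encodes a secreted metalloprotease, differed most. It stood at 46.2 CPM at E19 and 78.6, 91.2 and 134 at P4, P8 and P21 in EN3 and at 42, 26.4, 15 and 13.8 in the mean of the others. It was thus higher in EN3 at each later stage while that mean was lower, and the difference of the log2 ratios was 2.69. The subtypes most like EN3 ended near their E19 levels: EN1 stood at 29.1, 32, 20.9 and 34.6 CPM and EN2 at 13.2, 23.3, 12 and 12.2. Within label 5 Adamts19 stood at 19.6, 92.3, 109 and 143 CPM, and the difference was 3.84. In label 0 it stood at 84.8, 68.7, 26.1 and 46 CPM, on 31, 10, 5 and 6 UMIs, so the increase was not seen there. Nxph1, which encodes a secreted ligand of neurexins, was at 110.3 CPM at E19 and 220.2, 212 and 338 at P4, P8 and P21 in EN3 and 509, 398, 279.8 and 302 in the others (difference 2.19, and 2.19 in label 5). EN3 thus started lower than its class and reached it at P21. The membrane protein gene Tmem132b went the same way, from 52.9 CPM at E19 to 216 at P21 (difference 2.05). Both genes also increased in EN2, Nxph1 from 162 CPM at E19 to 319 at P21 and Tmem132b from 197 to 371. EN1 ended near its E19 levels of both (311 and 305 CPM of Nxph1, 133 and 146 of Tmem132b). Ndst4, a heparan sulfate sulfotransferase gene, stood at 52.9, 156, 67.9 and 77.2 in EN3 against 177, 61, 45.3 and 42, a difference of 2.53, and 1 of the other subtypes, EN2, stood at 1444 CPM at E19.

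On the other side, Pde1c, a calmodulin-dependent phosphodiesterase gene, decreased from 141 to 36.7 CPM in EN3 with little change in the others (difference -1.71). Foxo1, a forkhead factor gene, stood at 139.6, 70.8, 92.7 and 42.5 CPM in EN3 against 40.2, 35, 45.4 and 37.9 (difference -1.39, and -2.05 in label 5), so EN3 had more of it than its class at E19 and about the same at P21. Tac1, which encodes substance P, decreased in both and further in EN3 (57.4, 27.7, 13.9 and 2.93 against 46.1, 20.5, 15.3 and 16.4, difference -1.56). The potassium channel subunit gene Kcnab1 ended near its E19 level in EN3 (84.4, 47.6, 82.4 and 73.8) while it increased in the others (115, 148, 176 and 258, difference -1.42). All 8 kept the sign of the difference in label 5 alone, but that of Kcnab1 was -0.73, under 2-fold. Of the 129 genes above the class 101 were also past 2-fold with label 5 alone and none changed sign. Of the 88 below 54 were, and 4 changed sign, namely Gpc5, Ebf2, Sema3e and 9630028H03Rik: the difference of Gpc5 was -1.21 over all EN3 nuclei and 1.26 in label 5, that of Ebf2 -1.32 and 1.29, and that of Sema3e -1.15 and 0.20.

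**Figure D5:**
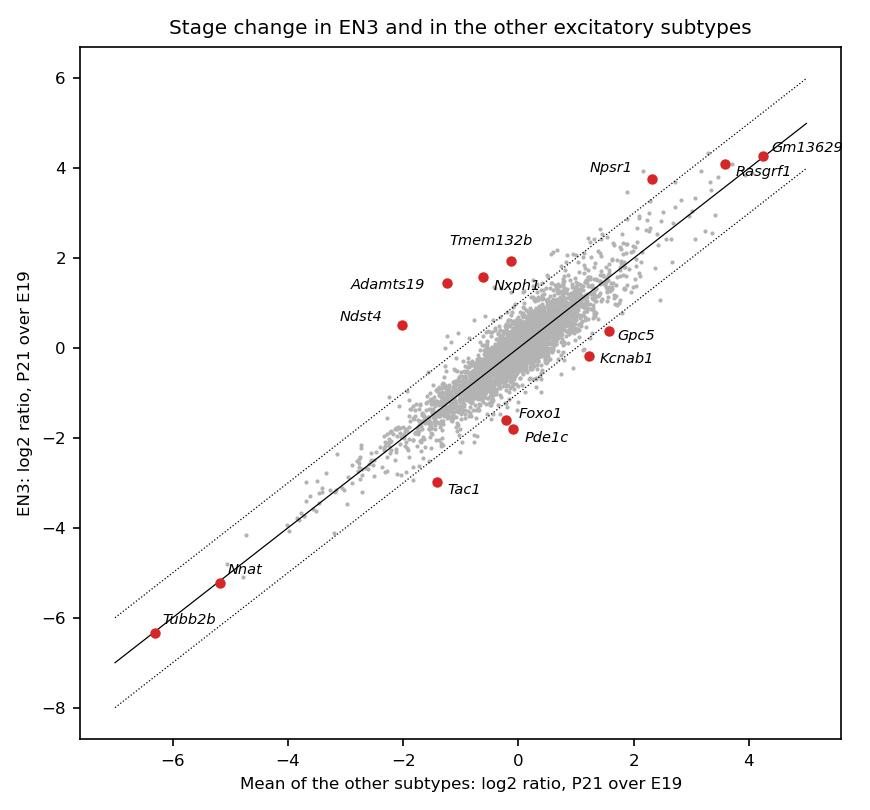
Log2 ratio of P21 to E19 in EN3 (vertical) against the mean of the other excitatory subtypes (horizontal) for genes with at least 50 CPM in EN3 at either stage. The solid line marks equal change and the dotted lines a 2-fold difference; Tubb2b and Nnat lie on the line with the rest of the class, Adamts19 lies 2.69 above it and Pde1c 1.71 below it.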

How the data were processed

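Superior colliculus nuclei of 4 stages, 1 library each, were analysed; 1 label abbreviates the embryonic day differently from the sample titles, and E19 of the titles was used. Per the labels, reads were processed with Cell Ranger 3.0.2 on mm10. The deposited matrix holds UMI counts per gene and nucleus, not normalized, and the authors' table of nuclei gives stage, class, subtype, cluster number, reference labels, UMI and gene counts, and the percent of mitochondrial and ribosomal UMIs. How the authors filtered nuclei and treated doublets, the annotation release and the strand setting are not given in the sources used here; no nucleus was removed.

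UMI counts were summed per library and subtype and scaled to CPM. Because a stage has 1 library, no test was run: a gene was counted when its log2 ratio, with 5 CPM added, passed 1. Python 3.11.15, numpy 2.4.6, scipy 1.17.1 and pandas 2.3.3 were used, and the counting was tested on simulated data. Intervals are exact Poisson or Clopper-Pearson at 95% and cover counting error; 0 UMIs were given a limit of 3 counts. Positions come from GENCODE M21 on GRCm38, which holds 31011 of 31053 gene identifiers, and sequences from RefSeq on GRCm38.p6.

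Named were the 12 leading genes (largest lowest log2 ratio over libraries, 50 CPM in EN3 throughout) and the 8 lacking genes (50 CPM in the reference). From E19 to P21 the 6 largest increases and decreases were named, and per step the 3 largest, at 100 CPM, and 4 each for the stage change against the class. Against EN1 and EN2 the 4 highest and lowest were named, and in each of 28 gene lists the extremes at 20 CPM. Genes of mitochondria, ribosomal proteins and haemoglobins, and Xist, Tsix and Y chromosome genes, were not ranked. Foxb1, Rxfp2, Prox1 by label, the label genes, Col25a1 the genes where EN3 was highest or lowest of all and those that changed sign in label 5 were chosen after their values had been seen. The members and lists were chosen with earlier results of these data known. Some genes that these rules name are not reported here.

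The alternatives were 20 CPM added, other filters and scalings, thinned or equally weighted nuclei, a pooled reference, nuclei with Gad UMIs left out, each library left out, Spearman correlation and, added after seeing the data, the deepest nuclei left out, the main cluster alone and label 5 alone.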

Additional observations from a re-analysis of the deposited data

Results flagged for a closer look

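1 result was marked because EN3 and the mean of its class moved in opposite directions. From E19 to P21 Adamts19 was higher by 1.45 on the log2 scale in EN3 and lower in the mean of the other excitatory subtypes (-1.25), a difference of 2.69. In label 5 nuclei alone the difference was 3.84. In label 0 nuclei the gene stood at 84.8 CPM at E19 and 46 at P21 (31 and 6 UMIs), so the increase was not seen there. EN1 (29.1 CPM at E19 and 34.6 at P21) and EN2 (13.2 and 12.2) ended near their E19 levels. The difference has no replicate and was not tested. No stage has the 4 libraries that a search for outlying samples needs.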

How the results depend on the processing

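With label 5 alone the stage change against the class of Gpc5 (-1.21), Ebf2 (-1.32) and Sema3e (-1.15) became 1.26, 1.29 and 0.20, and the stage change of Lef1 (-1.52) became 0.08; genes with smaller changes, such as Cntn4, turned too. The count of genes at least 2-fold higher in EN3 than in its class in all 4 libraries, 12, ranged from 14 to 21 when 1 library was left out, with 21 without E19, was 22 with label 5 alone and was 9 against pooled nuclei. The count of lower genes, 38, ranged from 39 to 51 when 1 library was left out and was 20 against pooled nuclei. Since a call asks for every library, leaving 1 out can only keep or add genes, so these ranges do not check the 12 and the 38. From E19 to P21, the 589 higher and 991 lower genes became 316 and 514 with 20 CPM added, and thinning gave 950 higher. Against the class, 129 and 88 became 44 and 19 with 20 CPM added and 239 and 142 with label 5 alone. The cause of these shifts was not tested beyond the fewer libraries, added CPM or chosen nuclei that define each alternative. All 12 values of the EN3 shares stayed within their intervals. Of single-gene values against the class, 212 moved by no more than the standard deviation of the log2 ratio over the 4 libraries and 28 by more. Across stages 87 values moved by no more than the counting error of EN3 and 9 by more. For the stage change against the class these numbers were 23 and 9. No paired analysis was possible because each stage has 1 library, so no replicate numbers are shared. Depth limits low genes most, since 3 counts in the EN3 sum correspond to 3.38 CPM at E19 and 1.47 at P21, and label 0 rests on 13, 12 and 6 nuclei after E19.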

Other observations

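2 genes outside the leading set were higher in EN3 than in most of its class in the later libraries and were picked out after their values were seen. Calb2, which encodes the calcium-binding protein calretinin, stood at 30.4 CPM at E19 and 57.5, 60.6 and 29.3 at P4, P8 and P21 in EN3 against 21.7, 28.4, 17.5 and 6.4 in the mean of the other subtypes. EN3 was the highest subtype at P4, P8 and P21, and the gene was carried by both labels (39.1, 60.0 and 59.2 CPM in label 5 and 13.7, 89.3 and 67.9 in label 0 at E19, P4 and P8). Slit3, a secreted ligand of Robo receptors, was below the mean of the class at E19 (116 against 142 CPM) and highest of all subtypes at P21 (302 CPM, with EN4 next at 229).

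A further 27 EN3 nuclei carried neither label 5 nor label 0. By the 6 genes of each label, 19 of them had more UMIs of the label 0 genes, 3 of the label 5 genes and 5 equal numbers. In the first set of reference labels the EN3 nuclei called ESC1 numbered 74, 56, 31 and 46 in order of stage, and those called ESC2 numbered 23, 12, 47 and 43. The 23 nuclei outside cluster 0 lay in cluster 7 (14 nuclei) and cluster 6 (9 nuclei).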
